A study of Rattus norvegicus with 43 samples.

Results

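The genes of the rat MHC class II system were followed from intact liver into hepatocyte culture. They are 8 genes, RT1-Da, RT1-Db1, RT1-Ba, RT1-Bb, RT1-DMa, RT1-DMb, Cd74 and Ciita, chosen by name. Their 14 probe sets on the Affymetrix RG230-2 array were those with a single gene symbol equal to one of these names, and each gene was read from the one of its probe sets that was brightest on average on the log2 scale. All 8 were among the 10649 genes that passed the filter on low signals and were tested, out of 14217 genes with a single-symbol probe set.

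Samples came from 3 male Sprague Dawley rats, whose age was not given. A lobe tied off before perfusion was the liver sample, and the other samples were rat primary hepatocytes (RPH), prepared from the same rat by perfusion: the cell pellet (0 h) and cells kept for 4, 24 and 48 h on collagen-coated plates. The medium was William's E with glutamate, gentamicin, insulin, transferrin and dexamethasone, with serum for the 4 h of attachment and without it afterwards. No test compound was given, the rats were killed under sodium pentobarbital, and each rat gave 1 sample per group (n = 3), and 43 technical arrays were averaged to 15 samples. The pellet is an enriched and not a pure cell population, and the liver sample holds every cell type of the organ.

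MHC class II molecules are pairs of an alpha and a beta chain that show peptides from the endosome to CD4 T cells. In liver they are carried mainly by Kupffer cells, dendritic cells, B cells and, to a lesser degree, the sinusoidal endothelium, while resting hepatocytes have little of them. The invariant chain, Cd74, escorts new class II molecules to the endosome and blocks their groove until proteases cut it away, the DM heterodimer (RT1-DMa with RT1-DMb) exchanges the remaining fragment for a peptide, and Ciita is the coactivator that switches the genes on together. Ciita binds no DNA itself and is held at the promoters by factors bound to the X and Y boxes.

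The 6 RT1 genes lie in the class II region of rat chromosome 20 (GRCr8): RT1-Da at chr20:4515393-4520387, RT1-Db1 at chr20:4550594-4560182, RT1-Ba at chr20:4577057-4581650, RT1-Bb at chr20:4598475-4604118, RT1-DMb at chr20:4695009-4702560 and RT1-DMa at chr20:4708932-4712335. Cd74 lies at chr18:56527071-56536406 and Ciita at chr10:5646854-5694393. A RefSeq promoter window, from 250 bases before to 50 bases after the annotated start, was held for 6 of the 8 genes (not for RT1-DMb and Ciita). That of Cd74 is not printed, because the stretch shown for the other genes would overlap its annotated gene. The annotated starts used for RT1-Da and RT1-Db1 lie inside the gene spans given above, and distances are counted from those starts. The stretch from 155 to 36 bases before the start is printed for 5 genes, the alpha and beta chains of the D and B molecules and RT1-DMa, which took another course in culture. The windows are chr20:4515260-4515379 (plus strand), chr20:4560198-4560317 (minus), chr20:4576902-4577021 (plus), chr20:4604154-4604273 (minus) and chr20:4712371-4712490 (minus), each written 5′ to 3′ on the gene's strand, with matches to the X1, X2 and Y letters in capitals.
RT1-Da: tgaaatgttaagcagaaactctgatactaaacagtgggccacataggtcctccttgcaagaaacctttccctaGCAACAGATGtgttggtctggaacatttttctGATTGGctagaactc
RT1-Db1: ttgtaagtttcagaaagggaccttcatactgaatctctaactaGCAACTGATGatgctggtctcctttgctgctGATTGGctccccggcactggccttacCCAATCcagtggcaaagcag
RT1-Ba: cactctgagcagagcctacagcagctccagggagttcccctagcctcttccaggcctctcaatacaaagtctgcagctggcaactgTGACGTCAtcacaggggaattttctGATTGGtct
RT1-Bb: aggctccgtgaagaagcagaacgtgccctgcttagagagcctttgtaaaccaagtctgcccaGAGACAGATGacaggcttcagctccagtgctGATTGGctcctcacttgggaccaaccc
RT1-DMa: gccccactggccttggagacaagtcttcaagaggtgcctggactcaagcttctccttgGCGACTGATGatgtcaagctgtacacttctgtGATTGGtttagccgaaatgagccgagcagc

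The letters searched, on both strands, were those of the X1, X2 and Y boxes. X1 is a binding site of the RFX complex. X2 (TGACGTCA) is a site of CREB family factors, and Y (GATTGG) is the reversed CCAAT box bound by NF-Y. X1 was searched as a pattern with free positions, not as a fixed run. Its matches are the longest capital runs in the RT1-Da, RT1-Db1, RT1-Bb and RT1-DMa lines. Any base was allowed at the positions where these runs differ from each other, and the other positions were fixed. No matches in these windows overlapped. RT1-Da, RT1-Db1, RT1-Bb and RT1-DMa held X1 and Y on the gene's strand, their first bases 31 to 32 bases apart, with X1 starting 82, 112, 93 and 97 bases before the start. RT1-Ba held X2 and Y, and RT1-Db1 had another Y match on the opposite strand. Of 33469 rat promoter windows of the same length, 2.84% held X1, 1.83% X2, 14.8% Y and 0.421% both X1 and Y. X1 and Y on the same strand, 15 to 50 bases apart, were found in 11 windows (0.0329%) of 10 genes, and 6 of these genes were class II genes of the RT1 region. The letters and spacing were chosen after these sequences were seen, and a match is a description of the window. RT1-DMa carries the same boxes at the same spacing as RT1-Da.

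Before any comparison, 2 of the 43 arrays went against their labels. The third array of the liver of rat 1 had a signal of 163 for Hbb, the beta chain of haemoglobin, where the other 8 liver arrays had 28566 to 46368. The third array of the 0 h RPH of rat 1 had 27544, where the other 33 RPH arrays had 14.0 to 396. The Cd74 signal followed the same split. It was 4553, 4653 and 1356 on the liver arrays of rat 1 and 1245, 1152 and 4255 on the 0 h arrays of rat 1, while the liver and 0 h arrays without these 2 spanned 3006 to 5428 and 1152 to 1817. The other 41 arrays were closest to their own sample. Labels were kept, and changes from liver or from 0 h RPH are given with all arrays and, where the text says so, without these 2.

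**Figure D1:**
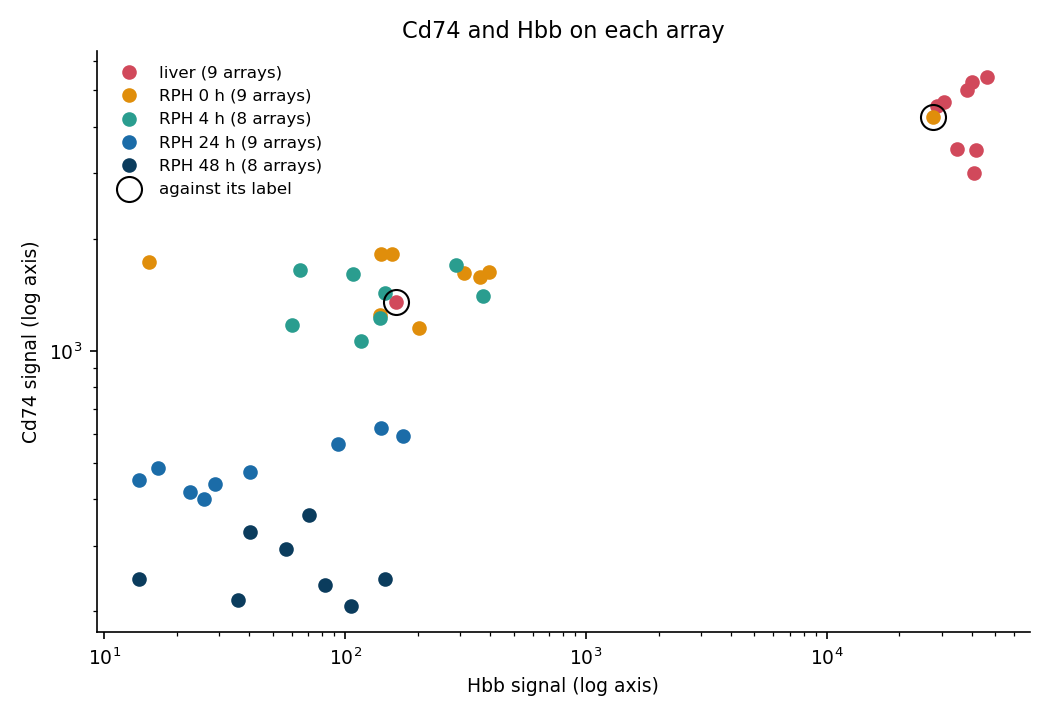
Cd74 signal against Hbb signal on each of the 43 arrays (both axes logarithmic, in MAS5 signal units), coloured by labelled group, with the 2 arrays against their labels ringed. The ringed liver array (Cd74 1356, Hbb 163) lies among the 0 h and 4 h RPH arrays, and the ringed 0 h array (Cd74 4255, Hbb 27544) lies among the liver arrays.

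RT1-Da, the alpha chain of the rat D molecule (probe set 1370883_at), fell at each step from liver to 48 h. The signals of rats 1, 2 and 3 were 2109, 4370 and 2978 in liver (3135 in rat 1 without its odd array) and 1479.9, 1473 and 1049.96 at 0 h (988 in rat 1). They were 832, 917 and 754 at 4 h, 325, 286 and 322 at 24 h, and 146, 179 and 155 at 48 h. With all arrays, no sample of any group reached the range of the group before it in time. Against liver, RT1-Da was 2.29-fold lower at 0 h (log2 change -1.19, SE 0.23, limma adjusted p = 0.0386), and without the 2 arrays 2.99-fold lower (-1.58, SE 0.19, adjusted p = 0.000458). It was 3.63-fold lower at 4 h, 9.71-fold at 24 h and 18.9-fold at 48 h (log2 change -4.24, SE 0.23, adjusted p = 2.24e-08), and without the 2 arrays 4.14-fold, 11.1-fold and 21.6-fold. Its fall from 0 h to 4 h (log2 change -0.66, SE 0.23, adjusted p = 0.0342) did not pass without the 2 arrays (-0.47, SE 0.19, adjusted p = 0.0618). The later steps did, from 4 h to 24 h by -1.42 (SE 0.23, adjusted p = 0.000324) and from 24 h to 48 h by -0.96 (SE 0.23, adjusted p = 0.0295).

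RT1-Ba, the alpha chain of the B molecule (probe set 1377334_at), took nearly the same course. Signals of rats 1, 2 and 3 were 2531, 3805 and 2584 in liver (4099 in rat 1 without the array), 1575, 1259 and 934 at 0 h (1011 in rat 1), and 882, 900.1 and 565 at 4 h. They were 347, 323 and 258 at 24 h and 146, 167 and 144 at 48 h. The 5 groups did not overlap with all arrays, and the value of rat 1 without its odd array left them apart. RT1-Ba was 2.38-fold lower than liver at 0 h (log2 change -1.25, SE 0.24, adjusted p = 0.0386; 3.24-fold without the 2 arrays, adjusted p = 0.000932) and 19.2-fold lower at 48 h (-4.26, SE 0.24, adjusted p = 2.85e-08; 22.5-fold without them). Across the 15 samples, log2 RT1-Ba and RT1-Da correlated with r = 0.993 (0.992 without the 2 arrays), a description over samples that share arrays and rats. The log2 ratio of RT1-Ba to RT1-Da at 48 h differed from its liver mean by -0.02 (exact permutation test, p = 1.0).

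RT1-Db1, the beta chain of the D molecule (probe set 1370383_s_at), had signals of 552, 1211 and 719 in liver, 423, 417 and 298 at 0 h, 320, 313 and 262 at 4 h, 163, 173 and 112 at 24 h and 108, 53.0 and 66.8 at 48 h in rats 1, 2 and 3. Without the odd arrays, rat 1 had 782 in liver and 310 at 0 h. Neighbouring RPH times overlapped only between 0 h and 4 h. RT1-Db1 was lower than liver by a log2 change of -1.06 at 0 h (SE 0.31, adjusted p = 0.161), which passed without the 2 arrays (-1.38, SE 0.28, adjusted p = 0.0151). It was 2.64-fold lower at 4 h (adjusted p = 0.00242), 5.34-fold at 24 h and 10.8-fold at 48 h (log2 change -3.43, SE 0.31, adjusted p = 1.46e-06), and 2.96-fold, 6-fold and 12.1-fold without the 2 arrays. The suffix of this probe set marks it as one that can match several transcripts, so a share from RT1-Db2, a related beta chain not analysed here, cannot be told apart.

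RT1-Bb, the beta chain of the B molecule (probe set 1371065_at), was too dim for firm values. Signals were 37.9, 200 and 75.5 in liver (57.7 in rat 1 without the array), 80.9, 66.2 and 22.6 at 0 h (63.6 in rat 1), 63.3, 27.1 and 12.4 at 4 h, 51.3, 22.7 and 14.5 at 24 h and 21.4, 13.7 and 15.4 at 48 h. Each group overlapped with the next one in time, and liver and 48 h did not overlap. The median SD between technical arrays of a sample was 0.95 on the log2 scale, against 0.13 for RT1-Da. RT1-Bb passed against liver at 48 h (5.03-fold lower, log2 change -2.33, SE 0.70, adjusted p = 0.0147; 5.78-fold without the 2 arrays), but not at 4 h (adjusted p = 0.0794) or 24 h (0.0615) with all arrays. With the rat as a block these were 0.0449 and 0.0335, and without the 2 arrays 0.0356 and 0.0266. Without the liver of rat 2, its brightest sample, the 48 h adjusted p was 0.0756, and without rat 2 altogether 0.232 (log2 change -1.56). The call was also lost with the first technical array only (adjusted p = 0.204) and with 43 arrays and the sample as a random block (0.0722). With 32 added to each signal the log2 change was -1.24, so the size of the fall is not settled.

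Cd74, the invariant chain (probe set 1367679_at), fell with the alpha chains, between liver and 0 h and again after 4 h. Signals of rats 1, 2 and 3 were 3062.5, 5229.7 and 3311 in liver (4603 in rat 1 without the array), 1828, 1788 and 1608 at 0 h (1198 in rat 1) and 1152, 1559 and 1543 at 4 h. They were 443, 444 and 591 at 24 h and 228, 229 and 326 at 48 h. Liver stood above 0 h in every rat, 0 h and 4 h overlapped once the odd array was left out, and the 4, 24 and 48 h samples did not overlap. Cd74 was 2.16-fold lower than liver at 0 h (log2 change -1.11, SE 0.22, adjusted p = 0.0467; 2.85-fold without the 2 arrays, adjusted p = 0.0023) and did not pass between 0 h and 4 h (-0.31, SE 0.22, adjusted p = 0.301; -0.10 without the 2 arrays). It then fell by -1.53 from 4 h to 24 h (SE 0.22, adjusted p = 0.000162) and by -0.92 from 24 h to 48 h (SE 0.22, adjusted p = 0.0326), and at 48 h was 14.6-fold below liver (adjusted p = 3.75e-08; 16.7-fold without the 2 arrays). Cd74 and RT1-Da correlated with r = 0.986 across the 15 samples, with or without the 2 arrays, and their log2 ratio at 48 h was 0.37 above its liver mean (exact permutation test, p = 0.20).

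**Figure D2:**
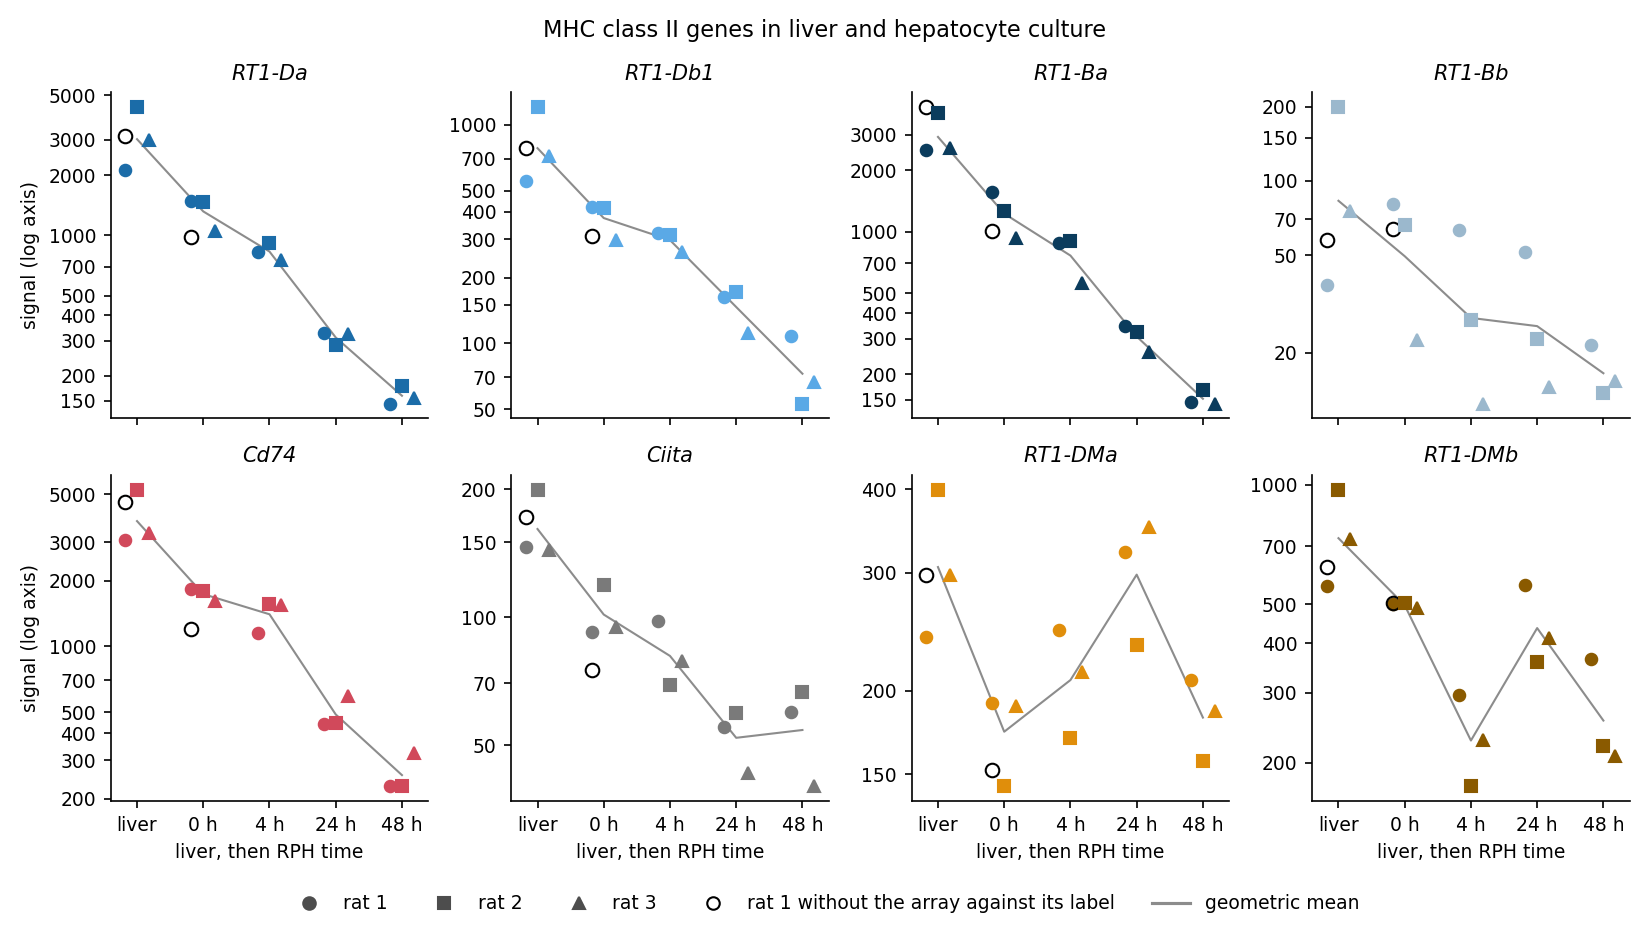
MAS5 signal of each MHC class II gene (logarithmic axis, its own scale per panel) in liver and in RPH at 0, 4, 24 and 48 h, 1 point per rat, with the geometric mean as a line and open circles for rat 1 without the 2 arrays against their labels. RT1-Da falls from 3016 in liver to 159 at 48 h (geometric means), whereas RT1-DMa stands at 306 in liver, 174 at 0 h, 298 at 24 h and 182 at 48 h.

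The DM chains took a different course. RT1-DMa, the alpha chain of DM (probe set 1370904_at), had signals of 241, 399 and 298 in liver (298 in rat 1 without the array), 192, 144 and 189.9 at 0 h (152 in rat 1) and 247, 169.9 and 213 at 4 h. It had 322, 234 and 352 at 24 h and 207, 157 and 186 at 48 h. In every rat the 24 h sample was the highest of the 4 RPH samples, and with all arrays it lay within the range of liver in rats 1 and 3 and just below it in rat 2. RT1-DMa rose from 0 h to 24 h by 0.78 on the log2 scale (SE 0.23, 1.72-fold, adjusted p = 0.0138; 0.89 without the 2 arrays, adjusted p = 0.00359). At 24 h it differed from liver by -0.04 (SE 0.23, adjusted p = 0.905; -0.14 without the 2 arrays), and at 48 h it was 1.68-fold lower than liver (-0.75, SE 0.23, adjusted p = 0.0151; 1.8-fold without them). Leaving out rat 1, rat 3, the 0 h sample of rat 2 or the 24 h sample of rat 3 ended the call of the rise, with adjusted p between 0.0593 and 0.141. Its fall at 48 h did not pass with each array centred on its own median (adjusted p = 0.13), nor without rat 2, rat 3, or the liver or 48 h sample of rat 2 (0.063 to 0.1001).

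RT1-DMb, the beta chain of DM (probe set 1370882_at), dipped at 4 h and was higher again at 24 h. Signals of rats 1, 2 and 3 were 557, 971 and 731 in liver (623 in rat 1 without the array), 500.1, 504 and 489.5 at 0 h (503 in rat 1) and 296, 175 and 228 at 4 h. They were 561, 359 and 412 at 24 h and 365, 220.03 and 208 at 48 h. Each rat's 24 h value was above its own 4 h and 48 h values, and only that of rat 1 was above its own 0 h value. RT1-DMb fell from 0 h to 4 h by -1.13 (SE 0.27, adjusted p = 0.00501; the same to 2 decimals without the 2 arrays) and rose from 4 h to 24 h by 0.94 (SE 0.27, 1.92-fold, adjusted p = 0.0137). Against liver it was 3.22-fold lower at 4 h (adjusted p = 0.000247), 1.68-fold at 24 h (adjusted p = 0.0348) and 2.87-fold at 48 h (log2 change -1.52, SE 0.27, adjusted p = 0.000469). These were 3.34-fold, 1.75-fold and 2.98-fold without the 2 arrays. The call at 24 h was lost with each array centred on its median (log2 change -0.33, adjusted p = 0.204), and without rat 2, rat 3, or the liver or 24 h sample of either (adjusted p 0.071 to 0.341). The rise to 24 h did not pass without rat 2, rat 3, the 4 h sample of rat 2 or the 24 h sample of rat 1 (adjusted p 0.0609 to 0.112).

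Set against RT1-Da within the same sample, both DM chains stood above their liver ratio at 24 h and 48 h in every rat. The log2 ratio of RT1-DMa to RT1-Da changed from its liver mean by 0.38 at 0 h, 1.3 at 4 h, 3.24 at 24 h and 3.5 at 48 h, an 11.3-fold change in ratio at 48 h. That of RT1-DMb to RT1-Da changed by 0.64, 0.17, 2.53 and 2.72. Without the 2 arrays the changes were 0.55, 1.39, 3.33 and 3.59 for RT1-DMa and 0.97, 0.31, 2.67 and 2.86 for RT1-DMb, and every rat had a higher ratio at 24 h and 48 h than any liver. The exact permutation test gave p = 0.10 for each of these 24 h and 48 h changes, which is the smallest value that 3 rats against 3 allow. Across the 15 samples RT1-DMa correlated with RT1-Da by r = 0.261 and RT1-DMb by 0.627, and the DM chains with each other by 0.6 (0.304, 0.635 and 0.57 without the 2 arrays). Each of these is a ratio or correlation of log2 signals of different probe sets and shows unequal change, not that either gene stayed level.

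**Figure D3:**
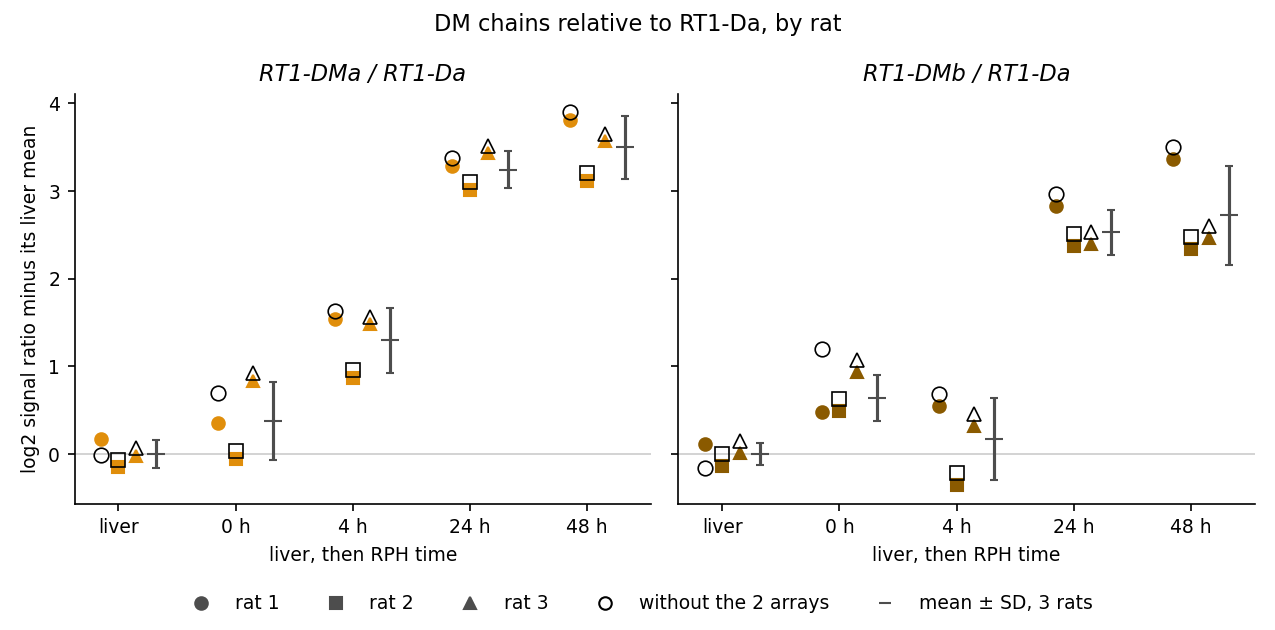
Log2 ratio of each DM chain to RT1-Da, minus its mean over the 3 livers, for each rat in liver and RPH (filled points, all arrays; open points, without the 2 arrays against their labels; bars, mean ± SD, n = 3). The RT1-DMa ratio stands 3.24 above liver at 24 h and 3.5 above at 48 h, and the RT1-DMb ratio 2.53 and 2.72 above.

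Ciita, the coactivator (probe set 1379381_at), was lower than liver at 24 h and 48 h, with a less firm call at 4 h. Signals of rats 1, 2 and 3 were 146, 199 and 144 in liver (172 in rat 1 without the array), 92.5, 119 and 94.9 at 0 h (75.3 in rat 1) and 97.8, 69.1 and 78.8 at 4 h. They were 55.02, 59.4 and 43.1 at 24 h and 59.9, 66.8 and 39.96 at 48 h. The lowest liver sample was above every RPH sample. Against liver the log2 change was -0.67 at 0 h (SE 0.22, adjusted p = 0.225; -0.85 without the 2 arrays, adjusted p = 0.0647), -0.99 at 4 h (SE 0.22, adjusted p = 0.00279), -1.63 at 24 h (SE 0.22, adjusted p = 6.45e-05) and -1.57 at 48 h (SE 0.22, adjusted p = 7.69e-05). Without the 2 arrays these last 3 were -1.07, -1.71 and -1.65. The 4 h call was lost with each array centred on its median (adjusted p = 0.0903) and without rat 2 (0.0529). From 24 h to 48 h it differed by 0.06 (SE 0.22, adjusted p = 0.946), while RT1-Da, RT1-Ba and Cd74 fell over the same step. The difference between these steps was not tested. At both times Ciita lay below the median signal of the arrays, which was 84.1 to 111 at 24 h and 85.7 to 111 at 48 h. A level course of Ciita there cannot be told apart from a floor of its signal. With the probe set of highest SD in its place the calls against liver at 4 h (adjusted p = 0.563) and 48 h (0.0871) were lost.

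Counted together, the 8 genes were lower than liver in 3 cases at 0 h, 6 at 4 h, 6 at 24 h and all 8 at 48 h, and none was higher. Of all genes tested, 0.432%, 29.9%, 23.9% and 22.6% were called lower in these comparisons. Without the 2 arrays the counts were 5, 8, 7 and 8, against 3.41%, 30.8%, 24.4% and 23.1% of all genes. With the rat as a block the 4 h count was 8, with the share of all genes in that fit not given. The median log2 change of the members was -0.94, -1.5, -2.05 and -2.88 (-1.22, -1.68, -2.24 and -3.07 without the 2 arrays), beside medians over all genes of -0.08, -0.25, 0.00 and 0.04. The 3 members called at 0 h (RT1-Da, RT1-Ba, Cd74) were called by no fit that left out the liver or 0 h sample of rat 2 or rat 3. Those fits kept the 2 arrays, and no sample was left out of the fit without the 2 arrays. From 0 h to 4 h, 3 members fell with all arrays and 1 without the 2 arrays, beside 22.6% and 22.4% of all genes.

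Later steps separated the members. From 0 h to 24 h, 5 fell (RT1-Da, RT1-Ba, RT1-Db1, Cd74, Ciita; 17.3% of all genes did) and 1 rose (RT1-DMa; 24.2% did). Without the 2 arrays the same counts stood beside 17.5% and 24.4%. From 0 h to 48 h, 6 fell (17.5% of all genes), RT1-Da by 8.27-fold and Cd74 by 6.76-fold with all arrays. Without the 2 arrays 6 fell as well (17.6%), these by 7.23-fold and 5.87-fold. From 4 h to 24 h, 5 fell (13.5%, and 13.7% without the 2 arrays) and RT1-DMb rose (26.3%). The Ciita fall in this step was called in 11 of 21 alternatives, and was lost among others with 32 added to each signal (adjusted p = 0.0624), without a filter (0.0552), with the random block (0.188) and with a trend and robust prior (0.0954). From 24 h to 48 h, RT1-Da, RT1-Ba and Cd74 fell, beside 1.77% of all genes (1.86% without the 2 arrays). Leaving out any rat, or any 24 h or 48 h sample, brought that count to 0 or 1, with the shares of all genes in those fits not given. In bulk samples, fewer cells of a type and less RNA per cell cannot be told apart in any of these changes. The comparisons share liver or 0 h samples and are not independent of each other.

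**Figure D4:**
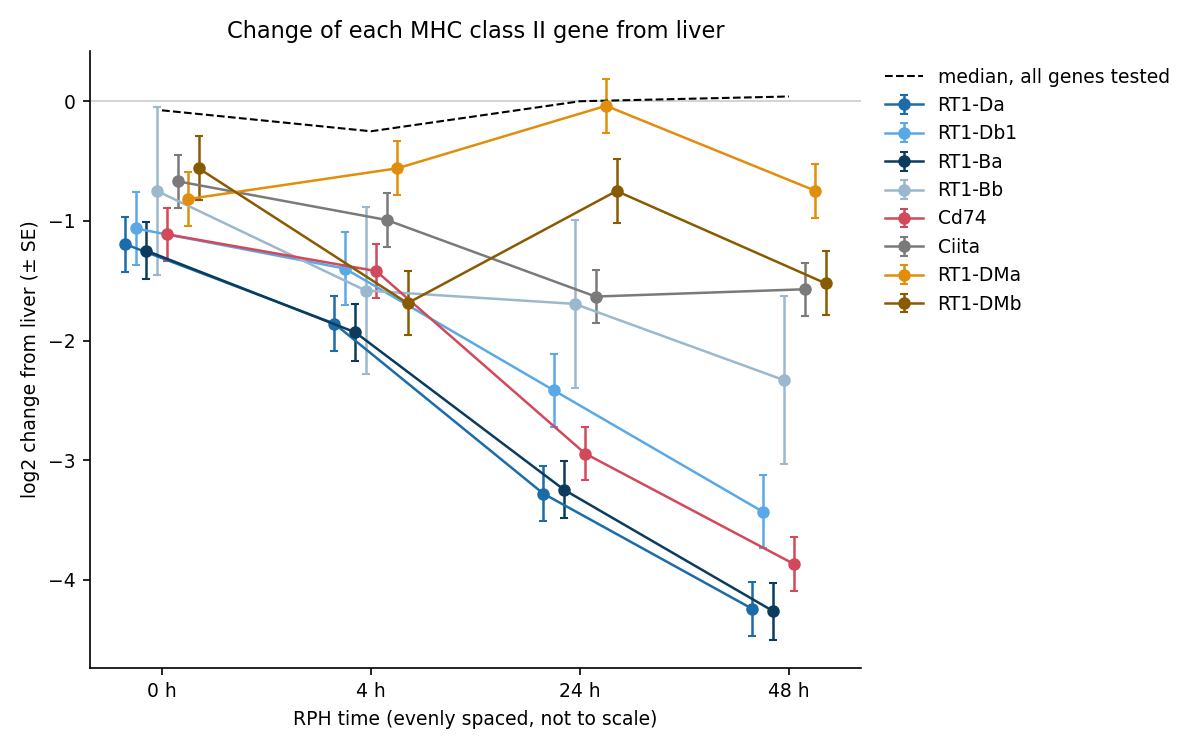
Log2 change of each MHC class II gene from liver (points with SE from the limma fit, 3 rats per group, all arrays) at 0, 4, 24 and 48 h, with the median of all 10649 genes dashed. RT1-Da and RT1-Ba reach -4.24 and -4.26 at 48 h, while RT1-DMa stands at -0.04 at 24 h and -0.75 at 48 h.

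Of the 6 probe sets not chosen, the brighter ones fell in step by their levels, without a test. The further RT1-Ba probe set 1370822_at fell from 339 in liver to 42.5 at 48 h, and the further RT1-Db1 probe set 1370382_at from 138 to 22.2 (geometric means, log2 change -3.00 and -2.64, and -3.08 and -2.77 without the 2 arrays). RT1-Ba probe sets 1392334_at and 1381593_x_at were dim in all groups, at 46.2 to 79.8 and 28.5 to 105, and were lowest at 0 h and 4 h, not at 48 h. Those of RT1-Bb (1371033_at, 13.5 to 42.3) and Ciita (1369214_a_at, 16.4 to 71.2) were dim as well.

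Other genes of the class II pathway are counted beside all genes tested, of which 22.6% were lower and 25.4% higher at 48 h than in liver (23.1% and 25.1% without the 2 arrays). Of 13 endosomal genes tested, 3 were lower and 5 higher at 48 h than in liver, with a median of 0.16. Without the 2 arrays these were 3 and 4, and in both fits the share that fell was near that of all genes. With each array centred on its median 2 were lower and 7 higher, beside 1440 and 4319 of the 10649 genes. Ctss, the cathepsin that trims the invariant chain in antigen-presenting cells, went from 3968 to 2716 at 0 h (log2 change -0.55, adjusted p = 0.192; -0.80 without the 2 arrays, adjusted p = 0.0178) and 1229 at 48 h (-1.69, SE 0.17, adjusted p = 4.08e-06). Marchf1, a ubiquitin ligase that removes class II molecules from the surface of those cells, was lower by -2.29 (SE 0.36, adjusted p = 0.000169). Cd63, a protein of late endosomes, was higher by 1.38 (SE 0.19, adjusted p = 4.75e-05) and Ifi30, a lysosomal thiol reductase, by 0.80 (SE 0.16, adjusted p = 0.00112). The 48 h changes of Ctss, Marchf1, Cd63 and Ifi30 without the 2 arrays were -1.81, -2.40, 1.35 and 0.83.

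Of 9 factors of the class II promoter tested, 1 was higher and 1 lower at 48 h than in liver, with or without the 2 arrays, fewer in each direction than the shares of all genes. Rfx5, a subunit of the RFX complex that binds the X1 box, stood at 534 in liver, 416 at 0 h, 312 at 4 h, 1019 at 24 h and 1340 at 48 h (geometric means), a log2 change of 1.33 at 48 h (SE 0.21, adjusted p = 0.000233; 1.27 without the 2 arrays). Ep300, a histone acetyltransferase, was lower by -0.53 (SE 0.14, adjusted p = 0.00776). Under median centring the Ep300 call was lost (adjusted p = 0.569). Of 8 genes of the interferon gamma axis, the chief inducer of Ciita outside professional antigen-presenting cells, Irf8, a factor of the myeloid lineage, was lower by -3.03 (SE 0.31, adjusted p = 5.29e-06) and Ifngr2, a receptor subunit, higher by 1.09 (SE 0.15, adjusted p = 5.26e-05). Ifngr1 differed by 0.02 (SE 0.16, adjusted p = 0.909) and Irf1 by -0.49 (SE 0.31, adjusted p = 0.21). The changes of Ep300, Irf8, Ifngr2, Ifngr1 and Irf1 without the 2 arrays were -0.53, -3.13, 1.08, -0.06 and -0.49.

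The class I pathway serves CD8 T cells and is active in hepatocytes. Of 23 genes tested, 4 were lower and 4 higher at 48 h than in liver (median -0.03; 4 and 5 without the 2 arrays), below the shares of all genes, beside 8 of 8 lower in class II (median -2.88), and the difference was not tested. The class I split depends on the scaling: 1 lower and 7 higher with each array centred on its median, 1 and 5 with quantile normalization. Class II kept 7 and 8 lower and none higher. Of the 10649 genes tested, 1440 were lower and 4319 higher with centring, and 2393 and 2801 with quantile normalization. B2m, the light chain of class I, was lower by -0.53 (SE 0.14, adjusted p = 0.00842), which did not pass after centring (-0.14) and turned sign after quantile normalization (0.03). Tapbp, which holds class I on the peptide transporter, was higher by 1.6 (SE 0.26, adjusted p = 0.000228), RT1-M3-1 by 1.54 (SE 0.30, adjusted p = 0.000847) and Psmb9, an immunoproteasome subunit, by 0.82 (SE 0.21, adjusted p = 0.00711), and RT1-S3 was lower by -1.59 (SE 0.26, adjusted p = 0.000265). B2m, Tapbp, RT1-M3-1, Psmb9 and RT1-S3 changed, without the 2 arrays, by -0.51, 1.58, 1.45, 0.81 and -1.60. Related RT1 class I genes share sequence, so their probe sets can share transcripts.

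Most leukocyte, Kupffer cell and endothelial markers were lower in culture along with the class II genes. At 48 h against liver, 12 of 13 pan-leukocyte genes (median -2.45), 12 of 15 Kupffer cell and macrophage genes (median -2.6) and 13 of 13 sinusoidal endothelial genes (median -4.47) were lower. Leaving out the 2 arrays, these were 13, 12 and 13 genes, with medians of -2.57, -2.73 and -4.59. The summed signal of the leukocyte list was 6725 to 11796 in liver, 4215 to 5352 at 0 h, 3472 to 4885 at 4 h, 2634 to 3249.8 at 24 h and 1577 to 2123 at 48 h, or 20.3% of liver at the last time (18.7% without the 2 arrays). That of the Kupffer list was 29419 to 37209 in liver, 17179 to 22412 at 0 h, 19399 to 27175 at 4 h, 9432 to 16683 at 24 h and 8622.5 to 11199 at 48 h (30.9%, and 28.8% without the 2 arrays). That of the endothelial list was 16631 to 20804 in liver, 10227 to 15085 at 0 h, 4047 to 6153 at 4 h, 2131 to 3798 at 24 h and 691 to 1384 at 48 h (5.6%, and 5.34% without them). The 8 class II genes summed to 9235 to 16385 in liver and to 45.6%, 32.02%, 17.2% and 9.62% of liver at 0, 4, 24 and 48 h (36%, 28.5%, 15.3% and 8.56% without the 2 arrays). Single genes carry much of the Kupffer sum, named here after their values were seen. Hmox1, haem oxygenase, which stress also induces, went from 425 at 0 h to 10651 at 4 h, a step over which 8 of the 15 Kupffer genes fell and 1, Hmox1, rose (median -0.78). Slc40a1, the iron exporter ferroportin, was 2651 in liver and 5430 at 48 h, the 1 gene of the list called higher there (log2 change 1.03, SE 0.17, adjusted p = 0.000242). The part of these cells in the class II changes was not tested.

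No detection call was used, so a low marker signal does not show that a cell type was present or absent. Ptprc, the leukocyte common antigen CD45, was 377 in liver, 187 at 0 h (log2 change -1.01, adjusted p = 0.0787; -1.34 without the 2 arrays, adjusted p = 0.00143) and 50.8 at 48 h (-2.89, SE 0.23, adjusted p = 5.96e-07). Cd68, a macrophage lysosomal protein, was lower by -2.6 at 48 h (SE 0.23, adjusted p = 1.4e-06), Cd163, a macrophage scavenger receptor, by -1.95 (SE 0.33, adjusted p = 0.000332), and Clec4f, a Kupffer cell lectin, by -4.94 (SE 0.19, adjusted p = 1.24e-09). Stab2, a scavenger receptor of the sinusoidal endothelium, was lower by -5.58 (SE 0.46, adjusted p = 7.43e-07). For Ptprc, Cd68, Cd163, Clec4f and Stab2 the 48 h changes without the 2 arrays were -3.05, -2.69, -2.09, -5.05 and -5.65. Of 13 dendritic and 12 B cell markers, 8 of each list had a single-symbol probe set on the array. Only 3 dendritic and 2 B cell markers passed the filter and were tested. Of the dendritic genes, Cd83 was lower by -2.38 (SE 0.32, adjusted p = 5.01e-05), Itgae was higher by 1.26 (SE 0.20, adjusted p = 0.000229) and Clec10a differed by -0.52 (SE 0.35, adjusted p = 0.232). These were -2.49, 1.27 and -0.58 without the 2 arrays. Of the B cell genes, Cd22 was lower by -1.27 (adjusted p = 0.00348) and Fcrla differed by -0.76 (adjusted p = 0.0653), with all arrays. The B cell receptor gene Cd79b was below the filter, at 17.4 in liver and 5.12 at 48 h without the 2 arrays, too dim to be read. Of 4 T and NK cell genes tested, 3 were lower at 48 h and 1, Zap70, was higher (1.27, adjusted p = 0.00921), beside 22.6% and 25.4% of all genes. These 2 counts were the same without the 2 arrays.

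The summed signal of 14 hepatocyte genes at 0 h was 92.1% of liver (94.7% without the 2 arrays). Liver holds hepatocytes as well, so this sum does not measure the purity of the pellet. Alb, the gene of serum albumin, stood at 36532 in liver and 29636 at 48 h (log2 change -0.30, SE 0.20, adjusted p = 0.233, with a sign that turned under median centring, 0.09, and quantile normalization, 0.22), and Hnf4a, a hepatocyte transcription factor, was lower by -0.94 at 48 h (SE 0.19, adjusted p = 0.00105; 0.0683 with median centring). By 48 h, 11 of the 14 genes were lower (median -1.08), and their summed signal was 43.7% of liver (11, -1.07 and 44.3% without the 2 arrays). None was called higher. The largest falls were those of Cyp2e1 (log2 change -7.76, adjusted p = 1.84e-09), Pck1 (-5.92), Apoa2 (-2.51) and Fgb (-2.25), with all arrays. The ratio of actin 3′ to 5′ probe sets, a sign of RNA integrity, was 3.22 to 6.99 in the livers, 3.16 to 4.4 at 0 h, 2.85 to 3.14 at 4 h, 2.24 to 2.5 at 24 h and 1.95 to 2.46 at 48 h (3.22 to 6.64 and 3.16 to 4.28 in liver and at 0 h without the 2 arrays). It moved with the groups in the order of the class II falls, and its part in them was not tested.

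**Figure D5:**
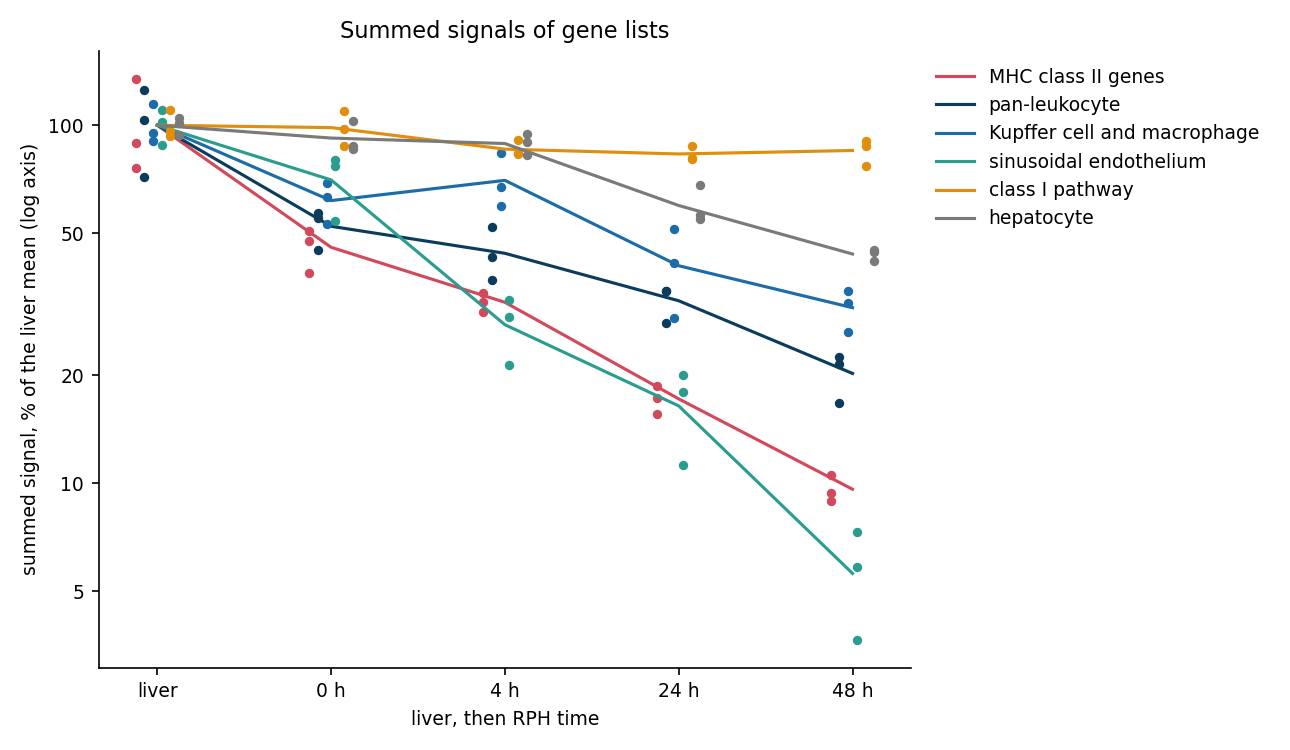
Summed signals of 6 gene lists as a percentage of their liver mean (logarithmic axis), with a point for each rat and a line through the group means, all arrays; Hmox1 carries the Kupffer rise at 4 h. At 48 h the MHC class II genes stand at 9.62%, the pan-leukocyte list at 20.3%, the Kupffer list at 30.9%, the sinusoidal endothelial list at 5.6%, the class I pathway at 85.0% and the hepatocyte list at 43.7%.

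Of all genes tested, those whose log2 signals followed the mean of the 8 centred members most closely over the 15 samples were Cfp, Fli1, Plac8, Cd83, Ptprc, Ly86, C1qa, Rac2, Frzb and Itgal, with Pearson r from 0.956 to 0.969, and the same 10 led without the 2 arrays. Cfp is the complement factor properdin, and C1qa is a complement chain made by macrophages. Against liver at 48 h, all 10 were lower, from -1.79 for Frzb (SE 0.26, adjusted p = 9.79e-05) to -3.96 for C1qa (SE 0.22, adjusted p = 2.69e-08), or -1.82 and -4.10 without the 2 arrays. Since the genes were ranked on this course, these values describe them and test nothing.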

How the data were processed

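Liver and RPH samples of 3 rats were hybridised by the authors to 43 Affymetrix RG230-2 arrays. The authors deposited MAS5 signal intensities on a linear scale. The study's methods name the Affymetrix Command Console software with scaling to 500, and the trimmed mean of each array was 500 (2% trimmed at each end). They also name the affy package of Bioconductor for CEL files. By the methods, 1 array at 4 h and 1 at 48 h failed quality control and are not among the 43. Technical arrays were averaged as log2 signals, and 15 samples entered one limma 3.58.1 fit (R 4.3.3, lmFit and eBayes). Genes above the array median in at least 5 arrays were tested (10649), with Benjamini-Hochberg adjustment within each of 9 comparisons and a threshold of 0.05. Single ratios were compared by two-sided exact permutation tests, unadjusted. Alternatives changed the scaling, offset, filter, probe set, use of technical arrays, prior, block, samples in the fit and samples left out. Promoters and coordinates came from RefSeq tables of GRCr8, used for annotation only, and figures were drawn with matplotlib 3.10.9.

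The members, the gene lists and the naming rule were chosen with earlier results of these data known. The rule names the 8 members, the 10 genes most like their mean, up to 4 genes per list with the largest change at 48 h vs. liver, and 13 set genes. Not every gene named by the rule is printed, so the printed genes are not the largest changes of every list. Replicate numbers mark the same animal. Deviations from the group means had a median r of 0.341 over 30 pairs from one rat and -0.179 over 60 pairs from different rats, and 0.0122 over the 12 pairs of liver with RPH. Array signals carry no read depth, and precision is limited by the 3 rats. The limma p-values rest on a spread pooled over the 15 samples of all groups, with no pairing by rat in the main fit.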

Additional observations from a re-analysis of the deposited data

How the results depend on the processing

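Every alternative kept the sign of every called change of the 8 genes, and 31 of 32 changes against liver were negative in each alternative run. The exception was RT1-DMa at 24 h, which was called in none. Of 1566 gene values under alternatives, 1386 kept their side of the threshold, 140 lost and 40 gained a call, and leaving out a rat or sample accounted for 93 of the losses. The count at 0 h vs. liver (3 with all arrays) was 0 with each array centred on its median, without a filter, with 43 arrays and the sample as a random block, and with only the compared groups in the fit. It was 5 with the first technical array only, 5 without the 2 arrays against their labels, an alternative chosen after seeing the data, and 6 when the rat was a replicate block as well. The fit with the first technical array only also leaves out these 2 arrays, since each is the third array of its sample. From 4 h vs. 0 h the count (3) was 1 with centring, without a filter, with the first array only, with the random block and without the 2 arrays. From 48 h vs. 24 h it (3) was 0 without a filter, 1 with the random block and 5 without the 2 arrays in the replicate block fit. With the rat as a replicate block alone the counts were 3, 8, 7, 8, 3, 6, 7, 6 and 3 in the order of the comparisons (0, 4, 24 and 48 h vs. liver, 4, 24 and 48 h vs. 0 h, 24 h vs. 4 h, 48 h vs. 24 h), and it ended no call. Counts in this section take falls and rises together. In the block fit, 5 fell and 1 rose at 24 h vs. 0 h and again at 24 h vs. 4 h. The shares of all genes called under these fits are not given here, so the counts are not measured against them.

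With 1 rat or 1 sample left out, the counts ranged from 0 to 3, 5 to 8, 5 to 7 and 6 to 8 against liver, 0 to 3, 5 to 6 and 4 to 7 against 0 h, 3 to 7 from 4 h to 24 h (3 without rat 3) and 0 to 1 from 24 h to 48 h. The shares of all genes called in these fits are not given either, so these counts are not measured against them. At 0 h vs. liver the count was 1 without rat 1 and 0 without rat 2, rat 3, or their liver or 0 h samples. The fits without rat 2, rat 3 or their samples kept the 2 arrays against their labels. From 0 h to 4 h it was 1 without rat 1, the 0 h sample of rat 1 or 2 or the 4 h sample of rat 3, and 0 without rat 2 or rat 3. Centring moved the median of all genes against liver from -0.08, -0.25, 0.00 and 0.04 to 0.30, 0.21, 0.42 and 0.43, and the genes called lower and higher at 48 h from 2406 and 2701 to 1440 and 4319. The stricter filter left RT1-Bb and Ciita untested. Dim probe sets limit RT1-Bb and Ciita, and 3 rats limit every exact test.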
